A study of Rattus norvegicus with 72 samples.

Results

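The acyl-CoA thioesterase family was followed in primary rat hepatocytes, liver cells freshly isolated from the animal and kept as a monolayer, after exposure to 8 compounds. Members were all probe sets, the groups of short probes that read 1 transcript on an Affymetrix array, whose platform symbol is or includes Acot1, Acot2, Acot3, Acot4, Acot7, Acot8, Acot12 or Acot13. There were 12 such probe sets for 8 genes, of 31099 probe sets in all. Of these, 11 passed the filter on dim signals, beside 18048 of the whole table. Acot1 passed it only through exposed groups in which its signal was high (6 of 16 exposed and 0 of 8 control groups). Counts of the reported fit are therefore also given over the 10 probe sets that passed in the control groups as well. Calls of Acot1 in that fit are given with their adjusted p in a fit with no filter. Counts and adjusted p under the other settings come from the filtered values and include Acot1 where it was called. The second Acot7 probe set, 1388075_at, did not pass: its signal lay between 0.772 and 17.7 on the 72 arrays.

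Cells were exposed for 24 h or 72 h to Wy-14643 (250 µM), clonidine (277 µM), aflatoxin B1 (19 nM), 2-nitrofluorene (78 µM), piperonyl butoxide (13.4 µM), nifedipine (156 µM), the tobacco nitrosamine NNK (625 µM) or methapyrilene (8.5 µM). The design text calls aflatoxin B1, NNK and 2-nitrofluorene genotoxic carcinogens, Wy-14643, piperonyl butoxide and methapyrilene non-genotoxic carcinogens, and nifedipine and clonidine non-carcinogens. Each compound and time had 3 arrays, from independent biological experiments by the labels, against 3 control arrays of the same time. Wy-14643, clonidine and aflatoxin B1 were set against 1 control group at each time. Likewise 2-nitrofluorene, piperonyl butoxide and nifedipine were set against another, and NNK and methapyrilene each had a control of their own. Serum-free medium with hydrocortisone and insulin was common to the cultures. The labels do not say what the control cultures received in place of a compound, nor the rats' strain and age.

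Acyl-CoA thioesterases cut fatty acyl-CoA, the activated form in which a fatty acid is burned or built into lipid, into the free fatty acid and coenzyme A. They stand opposite the acyl-CoA synthetases, which join the same parts, and so set how much acyl-CoA and free coenzyme A a compartment holds. In rodent liver several members are known targets of PPARα, a nuclear receptor that binds fatty acids and the drug Wy-14643 and drives peroxisomal and mitochondrial fatty acid oxidation. Acot1 works in the cytosol and Acot2 in mitochondria on long-chain acyl-CoA. Acot3 and Acot4 are peroxisomal enzymes in the mouse, where Acot4 acts on succinyl-CoA. These members share 1 fold, while Acot7, Acot8, Acot12 and Acot13 belong to another, the hotdog fold. Acot7 acts on long-chain acyl-CoA, Acot8 is peroxisomal with broad substrates, Acot12 cuts acetyl-CoA in the cytosol, and Acot13, also called Them2, is associated with mitochondria.

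In the RefSeq annotation of GRCr8 the genes Acot2, Acot1, Acot4 and Acot3 lie in this order on chromosome 6, followed by Acot5, and with Rpl23al8 between Acot1 and Acot4. Acot12 is on chromosome 2, Acot8 on 3, Acot7 on 5 and Acot13 on 17. The neighbours are close copies of each other, and the probe set 1388211_s_at carries the symbols of both Acot2 and Acot1. Values of the Acot1 and Acot2 probe sets are therefore uncertain as to which copy they read.

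Promoter sequences from RefSeq, 250 bases before to 50 bases after the start of each gene, were found for all 8 genes. They were searched on both strands for AGGTCANAGGTCA, the direct-repeat form to which PPARα binds with its partner RXR. The motif and the allowance were chosen with the expression values known. With 1 mismatch allowed at the 12 fixed letters, 147 of 33469 rat promoters (0.439%) held it, and 18 (0.0538%) held it exactly. The promoters of 3 of the 8 genes, Acot8, Acot4 and Acot12, held it with 1 mismatch. The others, Acot1, Acot2, Acot3, Acot7 and Acot13, had at least 4 mismatches at every position of these windows. The 3 promoters with a match are shown with the matched bases in capitals, and that of Acot1, the member with the largest changes, beside them without one.
Acot8, chr3:173962139-173962438, minus strand, GRCr8: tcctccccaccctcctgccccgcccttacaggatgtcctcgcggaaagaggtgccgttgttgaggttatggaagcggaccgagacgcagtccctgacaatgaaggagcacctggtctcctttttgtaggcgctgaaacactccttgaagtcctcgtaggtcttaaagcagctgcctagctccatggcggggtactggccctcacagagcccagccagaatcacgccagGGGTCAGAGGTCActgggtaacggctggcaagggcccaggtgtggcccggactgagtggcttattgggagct
Acot4, chr6:109399604-109399903, plus strand, GRCr8: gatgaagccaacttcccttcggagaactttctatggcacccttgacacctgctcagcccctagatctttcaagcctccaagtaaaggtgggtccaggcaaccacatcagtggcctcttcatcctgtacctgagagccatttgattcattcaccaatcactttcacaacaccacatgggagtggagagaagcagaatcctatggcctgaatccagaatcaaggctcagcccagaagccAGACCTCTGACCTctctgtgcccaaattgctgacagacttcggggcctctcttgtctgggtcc
Acot12, chr2:24721709-24722008, plus strand, GRCr8: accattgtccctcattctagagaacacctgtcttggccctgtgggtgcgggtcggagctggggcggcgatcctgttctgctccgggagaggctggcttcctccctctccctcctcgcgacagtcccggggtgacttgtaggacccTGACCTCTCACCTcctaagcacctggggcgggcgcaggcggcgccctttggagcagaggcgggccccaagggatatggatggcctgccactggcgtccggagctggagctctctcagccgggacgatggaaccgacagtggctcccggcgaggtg
Acot1, chr6:109367024-109367323, plus strand, GRCr8: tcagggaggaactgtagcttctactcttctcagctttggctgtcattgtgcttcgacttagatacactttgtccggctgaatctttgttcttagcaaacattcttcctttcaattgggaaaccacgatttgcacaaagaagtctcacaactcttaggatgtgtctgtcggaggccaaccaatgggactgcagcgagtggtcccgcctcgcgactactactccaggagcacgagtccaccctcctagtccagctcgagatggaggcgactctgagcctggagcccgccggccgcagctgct
The match in Acot8 begins 22 bases before the start site and reads on the gene's own strand. In Acot4 it begins 13 bases and in Acot12 105 bases before the start site, and both read on the opposite strand.

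The values were MAS5 signals on a linear scale. Array medians lay between 15.8 and 23.8, and 17.4% to 23.9% of values lay at or under the floor of 3.12 to which dim signals were raised. All 9 hepatocyte markers found were bright on every array, with albumin between 3055 and 11268. Titles carry a D number that pairs compound and control arrays, and arrays of D number 3, which belong to the Wy-14643, clonidine, aflatoxin B1 and shared control groups, stood apart. The log2 ratio of the 3′ to the 5′ actin control was 1.84 to 2.71 on 10 arrays, of which 8 carry D number 3, and 0.36 to 1.11 on the other 62. Over 3937 probe sets that move with time in culture in the other sets, each array was placed on a scale where the 24 h controls of those sets lie at 0 and the 72 h controls at 1. On it, 72 h minus 24 h was −0.50 ± 0.13 for D number 3 (SD, n = 4 pairs of arrays) and 0.58 ± 0.17 for D numbers 1 and 2 (SD, n = 8 pairs). The time labels of D number 3 therefore go against the other arrays. Calls of members that rest on these arrays were also counted without them, and values without them are given for some members. The gene lists, cell markers and correlations were computed only with them.

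After 72 h of Wy-14643, 8 of the 11 probe sets rose and none fell, with a median log2 change of 2.68. Over the 10 that passed in controls as well, 7 rose and the median was 2.49. Of all kept probe sets, 7.31% were called in this comparison, 2.82% upward and 4.49% downward, at an adjusted p under 0.05 (limma, Benjamini-Hochberg). Exposed arrays stood above all controls for 7 of these 10, beside 5.05% of all kept probe sets. Every probe set of the chromosome 6 members rose, as did Acot7.
Acot1 had signals of 4303, 3622 and 1683 in Wy-14643 cultures, against 2.12, 0.411 and 0.907 in controls. All exposed arrays were bright and all control arrays lay under the floor. The difference was therefore a lower bound: at least 953-fold higher, or 9.90 ± 1.28 on the log2 scale (SE, n = 3 each), with an adjusted p of 3.1e-06 in limma with no filter.
The probe set shared by Acot2 and Acot1 had signals of 3758, 3073 and 680.0 in Wy-14643 cultures, against 71.2, 80.9 and 15.0 in controls. Its arrays did not overlap, and it rose by 5.49 ± 0.92 (adjusted p = 5.23e-05). Replicate 3 was the lowest in both groups.

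The symbol of the mitochondrial enzyme Acot2 alone was carried by 3 probe sets. The brightest, 1391433_at, had signals of 2600.1, 3219 and 3013 in Wy-14643 cultures, against 416, 348 and 246 in controls. It rose by 3.16 ± 0.40 on the log2 scale, 8.92-fold (adjusted p = 7.4e-07), with every exposed array above every control array. Probe set 1384115_at rose by 2.20 ± 0.43 (adjusted p = 0.00041). The third, 1388210_at, rose by 3.47 ± 0.96 (adjusted p = 0.0162) with overlapping arrays, since replicate 3 was low in both groups: 2083, 1919 and 129.7 in Wy-14643 cultures, against 211, 198 and 9.16 in controls. Without control replicate 3 its change was 1.97 and the adjusted p 0.203. Without Wy-14643 replicate 1 the adjusted p was 0.067, and without replicate 2 it was 0.181.

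The peroxisomal enzymes Acot3 and Acot4 rose by similar amounts. Acot3 had signals of 435, 289 and 161 in Wy-14643 cultures, against 76.8, 70.0 and 32.2 in controls, a log2 rise of 2.29 ± 0.43 (adjusted p = 0.000277). Acot4 had 738, 632 and 701 in Wy-14643 cultures, against 120, 186 and 55.8 in controls, a rise of 2.68 ± 0.48 (adjusted p = 0.000129). Neither gene's arrays overlapped between groups.
Among the hotdog-fold members, Acot7 had signals of 986, 939 and 722 in Wy-14643 cultures, against 116, 134 and 159 in controls. It rose by 2.69 ± 0.40, 6.45-fold (adjusted p = 7.71e-06), and its exposed arrays were all far above the controls.
Acot8 had signals of 265, 180 and 178 in Wy-14643 cultures, against 85.0, 126 and 142 in controls. Its arrays did not overlap, but the change of 0.83 ± 0.31 did not pass the test (adjusted p = 0.099). Acot12, the acetyl-CoA enzyme, changed by 1.24 ± 0.55 (adjusted p = 0.168), with 968, 574 and 134 in Wy-14643 cultures, against 321, 296 and 59.6 in controls. With the D number as a block, Acot8 (adjusted p = 0.00476) and Acot12 (adjusted p = 0.00273) passed as well, where 21.2% of all kept probe sets did. Acot13 had signals of 238, 229 and 330.4 in Wy-14643 cultures, against 187, 234 and 319.5 in controls. The groups overlapped, and the change was 0.12 ± 0.28 (adjusted p = 0.871).
With D number 3 left out, 10 of the 11 probe sets were called, beside 9.15% of all kept probe sets, with Acot1 at 10.31 and Acot7 at 2.95. In a fit on the Wy-14643 and control arrays alone none of the 11, and no probe set of the table (0), was called, with adjusted p between 0.198 and 0.516 for the 8 named above.

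**Figure D1:**
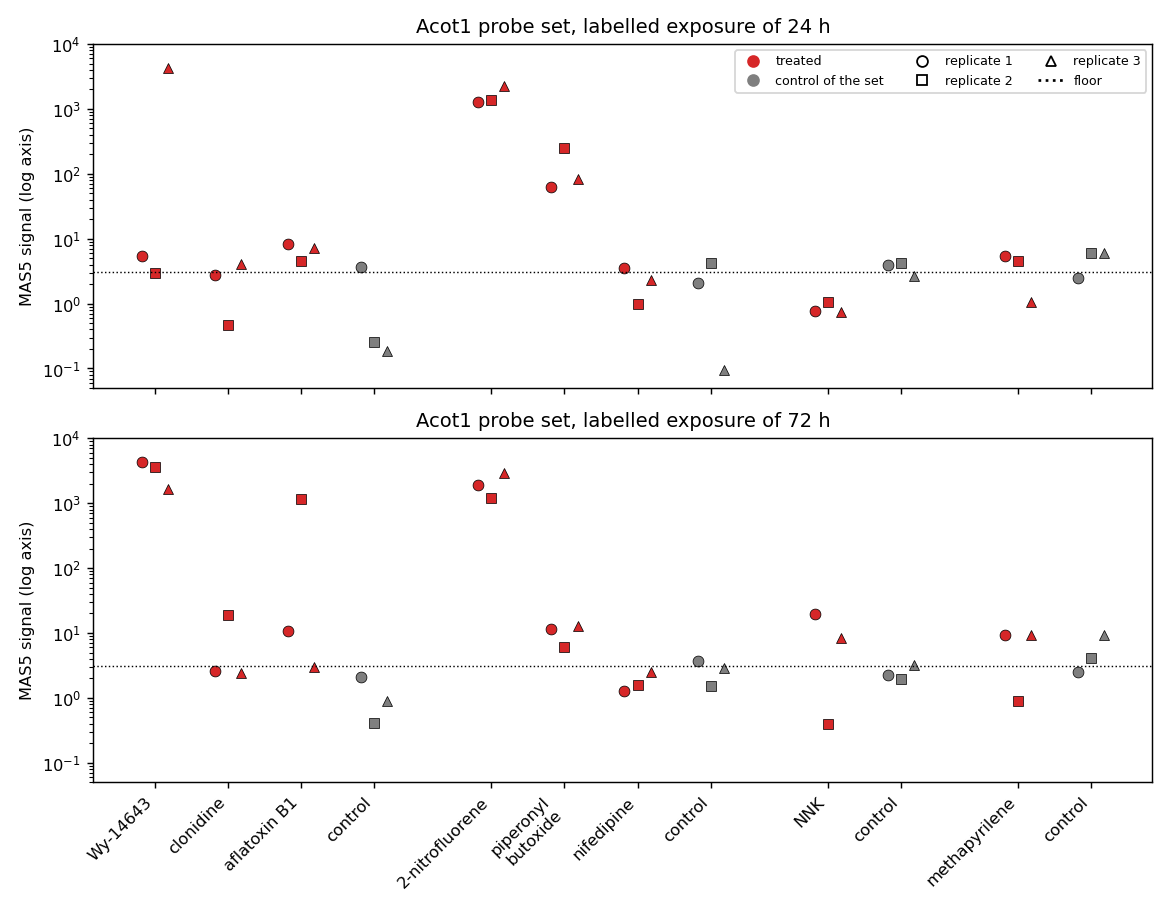
MAS5 signal of the Acot1 probe set on each of the 72 arrays, on a log axis, at 24 h (top) and 72 h (bottom). Red points are exposed and grey points control cultures, symbols mark the replicate and the dotted line is the floor of 3.12. Signals over 1000 appear in all 3 arrays of 2-nitrofluorene at both times and of Wy-14643 at 72 h, in Wy-14643 replicate 3 at 24 h, and in aflatoxin B1 replicate 2 at 72 h.

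After 24 h of Wy-14643, 0 of the 11 probe sets passed the test across all features (0.0443% of all kept probe sets did). At an unadjusted p under 0.05 in limma there were 9, but the share of all kept probe sets at that level was not counted. The median log2 change was 1.47, against −0.05 over all kept probe sets.
Acot1 had signals of 5.40, 2.94 and 4317 in Wy-14643 cultures, against 3.67, 0.258 and 0.183 in controls. Only replicate 3, of D number 3, was bright. Its change of 3.66 ± 1.28 had an adjusted p of 0.263.
The same array was the highest of the 3 for 11 of the 11 family probe sets, and for 40.6% of all kept probe sets. For Acot7 the signals were 179, 179 and 1235 in Wy-14643 cultures, against 126, 133 and 149 in controls. For Acot4 they were 166, 169 and 739 in Wy-14643 cultures, against 110.3, 110.1 and 67.4 in controls. Both genes were above every control array in each Wy-14643 array, as were 6 of the 11 probe sets, beside 3.52% of all kept probe sets.
Without the arrays of D number 3 again 0 were called, and the changes were smaller: 0.28 for Acot1, 0.71 for Acot2 at 1391433_at, 0.60 for Acot3, 0.60 for Acot4, 0.46 for Acot7 and 0.51 for Acot8. With the D number as a block 8 were called, beside 3.98% of all kept probe sets, among them Acot3 (adjusted p = 0.0116), Acot4 (0.0115), Acot7 (0.0329), Acot8 (0.0253) and Acot12 (0.00668), but not Acot1 (0.0583). Leaving out 1 array gave 1 call without control replicate 1 or 2, 3 without Wy-14643 replicate 1 and 4 without Wy-14643 replicate 2, where 0.438% to 1.19% of all kept probe sets were called.

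**Figure D2:**
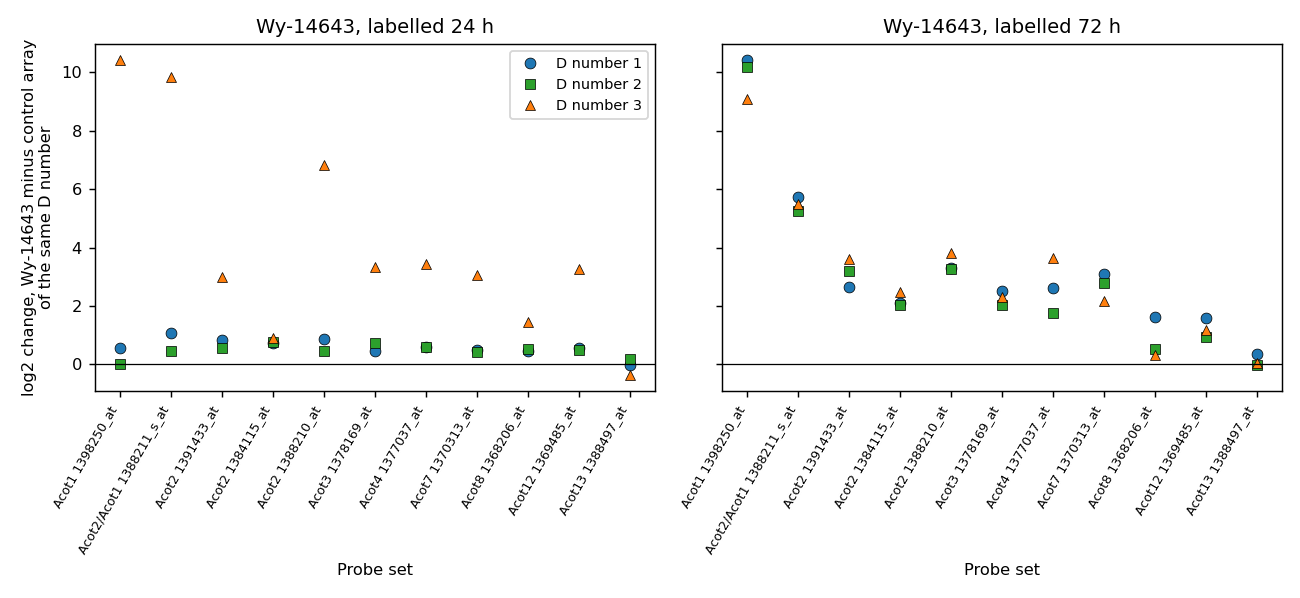
Log2 change of each kept probe set in each pair of arrays with the same D number, Wy-14643 minus control, at 24 h (left) and 72 h (right). At 24 h the Acot1 pair of D number 3 lies at 10.44 and those of D numbers 1 and 2 at 0.56 and 0.00, while at 72 h all 3 Acot1 pairs lie above 9.

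Family members were also higher at both times after 2-nitrofluorene, classed as genotoxic. After 24 h 8 of the 11 probe sets rose and none fell, with a median log2 change of 2.61, where 1.13% of all kept probe sets were called and 0.792% upward. After 72 h 7 rose and none fell, with a median of 1.82, where 0.809% were called and 0.698% upward. Over the 10 probe sets that passed in controls as well, 7 rose at 24 h and 6 at 72 h, with medians of 2.55 and 1.76.
Acot1 had signals of 1297, 1371 and 2231 in 2-nitrofluorene cultures at 24 h, against 2.09, 4.15 and 0.0933 in controls. At 72 h it had 1941, 1223 and 2950.2 in 2-nitrofluorene cultures, against 3.74, 1.53 and 2.91 in controls. All 6 exposed arrays were above 1000, and 1 control array at each time was above the floor. The rise was 8.85 ± 1.28 at 24 h (adjusted p = 3.53e-05 with no filter) and 9.17 ± 1.28 at 72 h (adjusted p = 3.18e-05 with no filter), values that rest on the floor given to the other controls.

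Acot4 rose most among the remaining probe sets with 1 symbol at 24 h. It had signals of 874, 818 and 1095 in 2-nitrofluorene cultures, against 93.7, 92.8 and 63.7 in controls, and rose by 3.49 ± 0.48, 11.2-fold. At 72 h it had 578, 461 and 676 in 2-nitrofluorene cultures, against 121, 92.5 and 142 in controls, and rose by 2.28 ± 0.48 (adjusted p = 0.0051). The arrays did not overlap at either time.
The peroxisomal enzyme Acot3 rose by 2.61 ± 0.43 at 24 h and by 1.82 ± 0.43 at 72 h (adjusted p = 0.0188). Its signals at 24 h were 129, 154 and 147 in 2-nitrofluorene cultures, against 27.2, 27.2 and 17.1 in controls. The 3 exposed arrays lay within a narrow range.
Mitochondrial Acot2 at 1391433_at had signals of 1319, 1232 and 1836 in 2-nitrofluorene cultures at 24 h, against 239, 166 and 189 in controls, a rise of 2.88 ± 0.40. At 72 h it rose by 2.20 ± 0.40 (adjusted p = 0.00086). Probe set 1384115_at rose by 2.48 ± 0.43 at 24 h and by 1.70 ± 0.43 at 72 h (adjusted p = 0.0345). The third, 1388210_at, stood above the controls on every array but did not pass, at 3.00 ± 0.96 (adjusted p = 0.121) after 24 h and 2.14 ± 0.96 (adjusted p = 0.516) after 72 h. The probe set shared with Acot1 rose by 5.00 ± 0.92 at 24 h and by 4.12 ± 0.92 at 72 h (adjusted p = 0.0107).

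Acot8, the peroxisomal hotdog-fold enzyme, rose at both times of 2-nitrofluorene. At 24 h it had signals of 185, 284 and 212 in 2-nitrofluorene cultures, against 98.0, 105 and 82.5 in controls, a rise of 1.24 ± 0.31 (adjusted p = 0.0261). At 72 h it had 351, 195 and 415 in 2-nitrofluorene cultures, against 118, 91.9 and 120.3 in controls, a rise of 1.48 ± 0.31 (adjusted p = 0.00537). At neither time did its groups overlap.
Acot7 had signals of 354, 482 and 439 in 2-nitrofluorene cultures at 24 h, against 99.1, 139 and 125 in controls, a rise of 1.81 ± 0.40 (adjusted p = 0.0071). At 72 h its change of 1.36 ± 0.40 did not pass (adjusted p = 0.116), although the arrays, 346, 223 and 408 in 2-nitrofluorene cultures, against 122, 110.0 and 139 in controls, did not overlap. Acot12 changed by 1.60 ± 0.55 at 24 h (adjusted p = 0.159) and by 1.54 ± 0.55 at 72 h (adjusted p = 0.285), again without overlap: 853, 643 and 1019.8 in 2-nitrofluorene cultures at 24 h, against 239.6, 334 and 252 in controls. Acot13 had 219.9, 194 and 181 in 2-nitrofluorene cultures at 24 h, against 208, 224 and 209 in controls, a change of −0.11 ± 0.28 (adjusted p = 0.962), and at 72 h the change was 0.40 ± 0.28 (adjusted p = 0.809).
Exposed arrays stood above all controls for 9 of the 10 probe sets that passed in controls as well at 24 h and for 10 of 10 at 72 h, beside 10.7% and 8.75% of all kept probe sets. With the D number as a block 10 of the 11 were called at each time, all but Acot13, where 7.24% and 5.07% of all kept probe sets were. The 72 h count depended on single arrays: it was 2 without control replicate 2 or 2-nitrofluorene replicate 3, and 4 without control replicate 3 or 2-nitrofluorene replicate 1, where 0.216% to 0.493% of all kept probe sets were called.

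**Figure D3:**
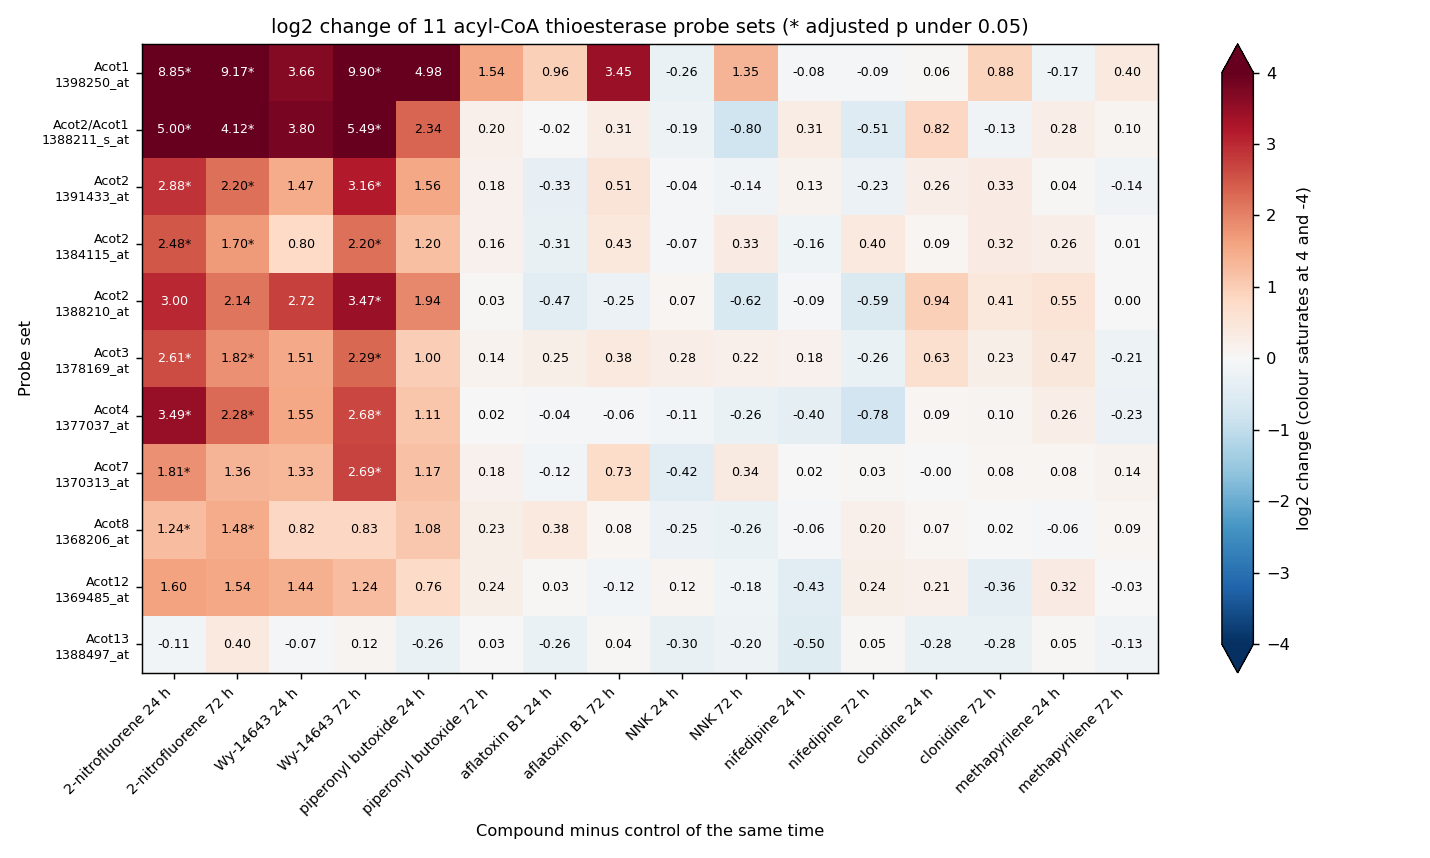
Log2 change of the 11 kept probe sets (rows) for the 16 comparisons (columns), each compound minus its control at 24 h and 72 h, with an asterisk for an adjusted p under 0.05. Colour saturates at 4 and −4. The called cells lie in the columns of 2-nitrofluorene and of Wy-14643 at 72 h, and the column of piperonyl butoxide at 24 h holds 10 values above 0 with no call.

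After 24 h of piperonyl butoxide, an insecticide synergist, 10 of the 11 values lay above 0 without a call. None of the 11 probe sets passed the test across all features (0.0887% of all kept probe sets did). At an unadjusted p under 0.05 in limma there were 9, a level at which the share of all kept probe sets was not counted. The median log2 change was 1.17, against −0.02 over all kept probe sets. Over the 10 that passed in controls as well the median was 1.14. All 3 exposed arrays stood above all 3 controls for 9 of these 10, beside 6.26% of all kept probe sets, and below them for 1, Acot13, beside 7.24%.
Acot1 had signals of 62.2, 246 and 83.3 in piperonyl butoxide cultures, against 2.09, 4.15 and 0.0933 in controls. Its change of 4.98 ± 1.28 had an adjusted p of 0.168. At 72 h it had 11.4, 6.16 and 12.7 in piperonyl butoxide cultures, against 3.74, 1.53 and 2.91 in controls, still above every control array, with a change of 1.54 ± 1.28.
Acot8 had signals of 194, 246 and 167 in piperonyl butoxide cultures at 24 h, against 98.0, 105 and 82.5 in controls, a change of 1.08 ± 0.31 (adjusted p = 0.383). Acot2 at 1391433_at had 498, 858 and 451 in piperonyl butoxide cultures, against 239, 166 and 189 in controls, a change of 1.56 ± 0.40 (adjusted p = 0.171). Acot7 changed by 1.17 ± 0.40 (adjusted p = 0.743). For these 3 genes the lowest exposed array was above the highest control array.
Acot3 changed by 1.00 ± 0.43, Acot4 by 1.11 ± 0.48 and Acot12 by 0.76 ± 0.55, with adjusted p near 1 for each. Acot13 had 201, 187 and 151 in piperonyl butoxide cultures, against 208, 224 and 209 in controls, a change of −0.26 ± 0.28.
Calls at 24 h depended on the estimate of spread, which the reported fit pools over all groups. With the D number as a block, where 0.676% of all kept probe sets were called, 3 members were: Acot1 (adjusted p = 0.0222), Acot2 at 1391433_at (0.0294) and Acot8 (0.00573). Of these, only Acot2 and Acot8 passed the filter in controls as well. In a fit on the piperonyl butoxide and control arrays alone 6 were called (0.582% of all kept probe sets), and 6 also when D number 3, to which none of these arrays belongs, was left out (0.355%). Leaving out the 10 arrays with a high actin ratio gave 7 (0.46%). At 72 h 0 were called, with 0 of the 11 at an unadjusted p under 0.05 in limma and 0% of all kept probe sets called, and the median change was 0.18.

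**Figure D4:**
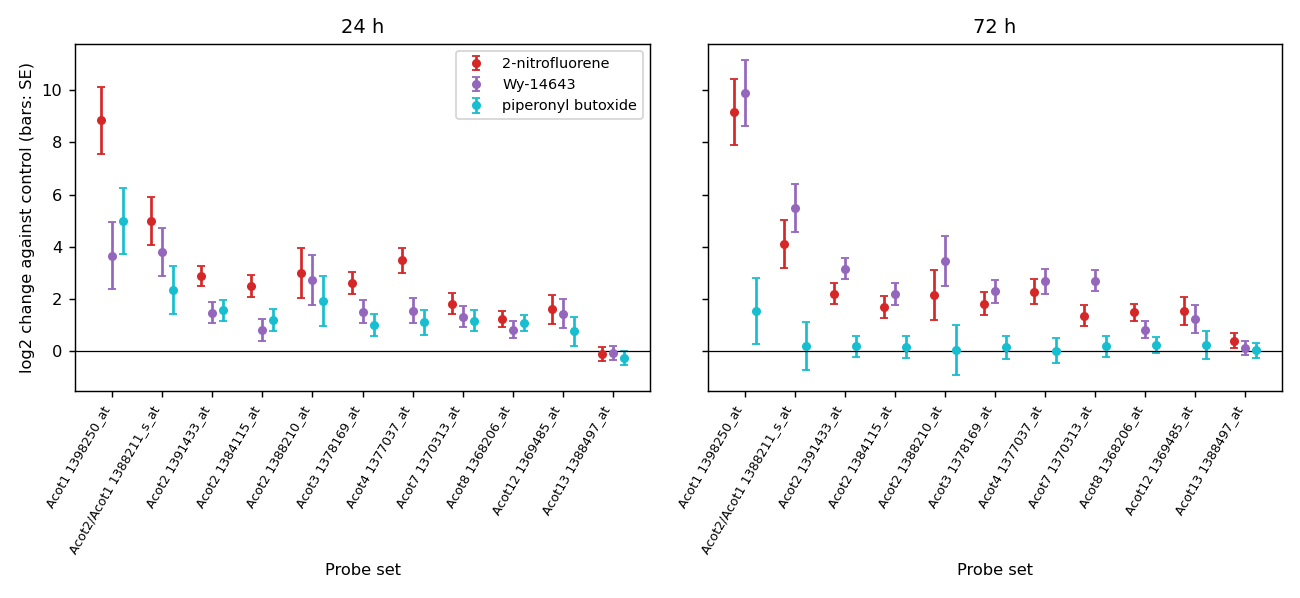
Log2 change (points) and SE (bars) of the 11 kept probe sets against control at 24 h (left) and 72 h (right) for 2-nitrofluorene, Wy-14643 and piperonyl butoxide. The piperonyl butoxide points run from −0.26 to 4.98 at 24 h and from 0.02 to 1.54 at 72 h, and Acot13 lies near 0 for all 3 compounds.

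The effect at 72 h minus that at 24 h was tested in the same fit, and no member was called for any of the 8 compounds. Where members at an unadjusted p under 0.05 are counted from here on, the share of all kept probe sets at that level was not counted. Over all kept probe sets the difference was called for 0.00554% after 2-nitrofluorene, 0.0277% after NNK, 0.116% after nifedipine and 0% after the other 5 compounds. For Wy-14643 the difference was 6.23 ± 1.80 for Acot1 (adjusted p = 0.516), 1.69 ± 0.57 for Acot2 at 1391433_at and 1.36 ± 0.57 for Acot7, with 4 of the 11 at an unadjusted p under 0.05 in limma, and 0% of all kept probe sets were called. Leaving out D number 3 gave 4 called members (0.665% of all kept probe sets), leaving out the arrays with a high actin ratio gave 5 (1.15%), and leaving out Wy-14643 replicate 3 at 24 h gave 3 (0.626%). For piperonyl butoxide the difference was −3.45 ± 1.80 for Acot1 and −0.85 ± 0.44 for Acot8, below 0 for 10 of the 11, with 1 at an unadjusted p under 0.05 and an adjusted p of 1 for each. For 2-nitrofluorene it ran from −1.21 for Acot4 to 0.51 for Acot13, with 0 at an unadjusted p under 0.05.
The effects of 2-nitrofluorene and Wy-14643, which have no arrays in common, did not differ past the test for any member. At 24 h the 2-nitrofluorene effect minus the Wy-14643 effect was 5.19 ± 1.80 for Acot1 and 1.93 ± 0.68 for Acot4 (4 of 11 at an unadjusted p under 0.05, 0% of all kept probe sets called). Leaving out D number 3 gave 3 called members (0.0831% of all kept probe sets), leaving out the arrays with a high actin ratio gave 5 (0.155%), and leaving out Wy-14643 replicate 3 gave 2 (0.0665%). At 72 h the difference was −1.33 ± 0.57 for Acot7 (adjusted p = 0.343, 95% interval −2.47 to −0.19) and 0.66 ± 0.44 for Acot8 (95% interval −0.23 to 1.55), where 0.416% of all kept probe sets were called and 1 member had an unadjusted p under 0.05. With the arrays of a high actin ratio left out 1 member was called, lower for 2-nitrofluorene, beside 2.78% of all kept probe sets. The doses were not matched between the compounds.

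In the other comparisons no member was called. After aflatoxin B1 3.33% of all kept probe sets were called at 24 h and 4.91% at 72 h, after NNK 0.92% and 3.32%, after nifedipine 0.46% and 3.18%, after clonidine 0.0166% and 0.0332%, and after methapyrilene 0% at both times. Median changes of the family lay between −0.18 (NNK, 72 h) and 0.31 (aflatoxin B1, 72 h). Of the 10 comparisons, 1 member at an unadjusted p under 0.05 in limma appeared in 1 of them, Acot1 after 72 h of aflatoxin B1.
There Acot1 had signals of 10.9, 1149 and 2.99 in aflatoxin B1 cultures, against 2.12, 0.411 and 0.907 in controls. Replicate 2 alone was bright, and the change of 3.45 ± 1.28 had an adjusted p of 0.120. This array was also the highest of the 3 for 8 of the 11 family probe sets and for 10 of 15 PPARα reference genes, beside 34.4% of all kept probe sets. Its actin ratio was among the 10 high ones, and its nearest other array was aflatoxin B1 replicate 1 at 24 h. Their Pearson r of 0.943 was the lowest that any of the 72 arrays had with its nearest array. Replicate 1 at 24 h was itself nearest to aflatoxin B1 replicate 3 at 72 h (r 0.971). Deviations from the group means correlated at −0.29 between replicate 2 at 72 h and the control of the same D number, and at −0.26 for replicate 1 at 24 h. Whether the labels of these arrays were exchanged was not tested, so the 72 h value holds only for the labels as given. The reported fit gave 1 call, Acot1, without aflatoxin B1 replicate 1 or without replicate 3 (8.9% and 6.13% of all kept probe sets). Acot1 passed the filter only through exposed groups, so in these settings no member that passed in controls was called. With D number 3 left out the fit gave 2 calls (12.8%), Acot1 at 5.17 and Acot7 at 1.39. When arrays with a high actin ratio, replicate 2 among them, were left out, the Acot1 change was 1.81 (adjusted p = 0.28).

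Time in culture was read from the controls alone. Over the 4 control groups, the difference of 72 h minus 24 h was called for Acot3, which rose by 0.62 ± 0.22 (adjusted p = 0.0419), where 15.9% of all kept probe sets were called. The controls of 2-nitrofluorene and of NNK carry the same D numbers, 7, 8 and 9, and every D number recurs at both times. The reported fit treated the 24 control arrays as independent and did not pair them. With the D number as a block Acot3 was called again, with Acot2 at 1388210_at higher by 0.83 ± 0.29 (adjusted p = 0.0272) and Acot13 lower, at −0.23 ± 0.09 (adjusted p = 0.0485), where 30.8% of all kept probe sets were called. The block was set within each time, so it took the spread between D numbers out of the error of this difference. Blocked errors can therefore be too small for a difference between times in controls, and no conclusion is drawn from these calls. Without D number 3 all 5 calls were upward, Acot3 at 0.65 ± 0.16 (adjusted p = 0.00197), the 3 Acot2 probe sets and the one shared with Acot1, beside 25.7%. The Acot3 call of the reported fit was lost when any 1 of 13 of the 24 control arrays was left out (0 called). At 24 h these were replicate 3 of the controls of Wy-14643, of 2-nitrofluorene and of methapyrilene and replicates 1 and 3 of the NNK control. At 72 h they were replicates 1 and 2 of the controls of Wy-14643 and of 2-nitrofluorene, replicate 2 of the NNK control and all 3 of the methapyrilene control. The other 10 members ran from −0.23 for Acot13 to 0.88 for the probe set shared by Acot2 and Acot1.

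The partners of the family were followed by fixed lists. The acyl-CoA synthetases join fatty acids to coenzyme A, and of 17 measured 3 rose and 1 fell after 72 h of Wy-14643, beside 2.82% and 4.49% of all kept probe sets. Acsl1, the main long-chain synthetase of liver, rose by 1.95 ± 0.28 after 72 h of Wy-14643, by 2.24 ± 0.28 and 2.28 ± 0.28 after 24 h and 72 h of 2-nitrofluorene, and by 1.55 ± 0.28 after 24 h of piperonyl butoxide. Acss2, which makes acetyl-CoA from acetate, changed by −1.78 after 72 h of Wy-14643, −1.22 after 72 h of aflatoxin B1 and −1.41 after 72 h of NNK. Slc27a3 rose by 1.72 and 2.27 after 24 h and 72 h of aflatoxin B1 and by 1.99 after 72 h of NNK. After 2-nitrofluorene 1 synthetase rose at 24 h and 3 at 72 h, beside 0.792% and 0.698% of all kept probe sets upward. After 24 h of piperonyl butoxide 1 rose, where 0.0887% of all kept probe sets were called.
Of 18 measured genes of coenzyme A supply and turnover, 6 rose and 2 fell after 72 h of Wy-14643, against the same background, and 4 rose at each time of 2-nitrofluorene, beside 0.792% at 24 h and 0.698% at 72 h. Pank1, the kinase of the first step of coenzyme A synthesis, rose by 1.51 ± 0.33 after 72 h of Wy-14643 and by 1.63 ± 0.33 and 1.79 ± 0.33 after 24 h and 72 h of 2-nitrofluorene. Ppcs, of the following step, rose by 1.57 ± 0.28 after 72 h of Wy-14643. Nudt7, a peroxisomal hydrolase of coenzyme A, rose by 1.62 ± 0.32 after 72 h of Wy-14643 and by 1.66 ± 0.32 after 24 h of 2-nitrofluorene. Slc25a42, the mitochondrial carrier of coenzyme A, rose by 2.20 ± 0.36 after 24 h of 2-nitrofluorene.

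Of 13 genes of peroxisomal oxidation, 7 rose and 1 fell after 72 h of Wy-14643, beside 2.82% and 4.49% of all kept probe sets. At each time of 2-nitrofluorene 6 rose, beside 0.792% upward at 24 h and 0.698% at 72 h. After 24 h of piperonyl butoxide 2 rose, where 0.0887% of all kept probe sets were called. Ehhadh, the peroxisomal bifunctional enzyme, rose by 2.89 ± 0.66 after 72 h of Wy-14643, by 4.42 ± 0.66 after 24 h of 2-nitrofluorene and by 3.35 ± 0.66 after 24 h of piperonyl butoxide. Of 15 PPARα reference genes 11 rose after 72 h of Wy-14643, 11 and 8 after 24 h and 72 h of 2-nitrofluorene and 3 after 24 h of piperonyl butoxide, beside the same shares. After 24 h of Wy-14643 1 rose, where 0.0443% of all kept probe sets were called, and none fell in these comparisons. After 72 h of nifedipine 1 of the 15 rose, where 3.18% of all kept probe sets were called. It was Ppara, the gene of the receptor, at 3.64 ± 0.89 (adjusted p = 0.0131 in limma), while the median of the list was −0.46. Cyp4a1, the fatty acid ω-hydroxylase, rose by 3.50 ± 0.94 after 72 h of Wy-14643, by 5.58 ± 0.94 after 24 h of 2-nitrofluorene and by 4.94 ± 0.94 after 24 h of piperonyl butoxide.
Thioesterases outside the family as defined here were followed too. Of 11 listed, 5 were measured (Acot9, Them4, Baat, Ppt1 and Ppt2), and none was called after Wy-14643, 2-nitrofluorene or piperonyl butoxide. Them4 was nearest, at 0.90 ± 0.32 after 72 h of Wy-14643 (adjusted p = 0.074), and Baat, which joins bile acids to taurine and glycine, was at −0.82 ± 0.37 (adjusted p = 0.192).

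Markers of macrophages, a cell type that liver preparations can hold, differed in some of the same comparisons. Of 14 measured, 5 fell (4.49% of all kept probe sets did) and 1 was above 0 after 72 h of Wy-14643, with a median log2 change of −1.72, and their summed signal over 15 markers ran from 476 to 740.1 in Wy-14643 cultures, against 819 to 1319 in controls. At 24 h of Wy-14643 none was called, with a median of −0.77 and 1 of the 14 above 0. After 2-nitrofluorene none was called, with medians of −0.61 at 24 h and −0.92 at 72 h. The summed signal ran from 792 to 1301 in 2-nitrofluorene cultures at 24 h, against 1096 to 1839 in controls, and from 562 to 1247 in 2-nitrofluorene cultures at 72 h, against 892 to 1994 in controls. After 24 h of piperonyl butoxide the median was −0.15. After aflatoxin B1 it was 0.69 at 24 h and 1.01 at 72 h, with none called. No marker of the list was at the floor on all arrays of these groups (0). After 72 h of nifedipine the markers had a median of −1.49 with 3 fallen, where 3.18% of all kept probe sets were called. In such cultures fewer cells of a type and less RNA per cell cannot be told apart, and the part of the markers in the family's changes was not tested. The summed signal of 9 hepatocyte markers was 22826 to 27148 in Wy-14643 cultures at 72 h, against 31136 to 35537 in controls, and 2 of them fell, beside 4.49% of all kept probe sets. Of 6 endothelial, 7 stellate and 2 bile duct markers none was called after Wy-14643 or 2-nitrofluorene, with medians after 72 h of Wy-14643 of −0.62, −0.75 and −0.36.

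Across the 24 group means, members followed each other to different degrees, as a description over groups that share arrays of control and of time. The log2 means of Acot2 at 1391433_at had a Pearson r of 0.963 with Acot3 and 0.962 with Acot7, and Acot1 had 0.934 with Acot4. Acot12 had r of 0.486 with Acot3 and 0.824 with Acot8. Acot13 had r between 0.03 and 0.56 with the other 10 probe sets.
Outside the family, the genes most like a member were named by the highest r over the same 24 means. For Acot1 they were Colq (0.975), the collagen tail of acetylcholinesterase, Pex11a (0.971), which divides peroxisomes, and Hadha (0.95), of mitochondrial β-oxidation. Pdk4, a kinase that switches off pyruvate dehydrogenase, was the most like Acot2 (0.941) and Acot3 (0.947). Mlycd, malonyl-CoA decarboxylase, was the most like Acot4 (0.945), and Slc22a5, the carnitine transporter, the most like Acot7 (0.946). Acot8 was closest to Hadha (0.926) and Ech1 (0.926), Acot12 to Apmap (0.935) and Acat1 (0.935), and Acot13 to Thrb (0.907), the thyroid hormone receptor β.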

How the data were processed

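Total RNA of primary rat hepatocytes was hybridised to 72 one-colour Affymetrix arrays, 3 per group in 24 groups. Per the submitters' processing notes, the authors made the deposited intensity values with MAS5, on a linear scale; the labels give no version, settings or genome build. Every value column was used (0 left out). Signals were raised to a floor of 3.12 (20th percentile) and put on the log2 scale, so changes of dim genes are understated. After removal of 57 control probe sets, 18048 (58.0%) with a group mean at or above the table median of 19.7 were kept. Symbols came from the platform annotation (20826 probe sets with 1 symbol, 436 with several, 9780 with none).

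The tests used limma 3.58.1 under R 4.3.3, with lmFit on 24 group means (48 residual degrees of freedom), eBayes with an intensity trend, and Benjamini-Hochberg adjustment over all kept probe sets, called under 0.05. Errors are SE. The script was tested on simulated data. The number of arrays limits the precision.

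All members are accounted for. Fixed rules selected the other genes: up to 4 called genes per list and comparison by size of change, and the 3 genes most like each member. Only a part of the genes so selected is named. Thioesterases outside the family are named although none was called. Members and lists were chosen with earlier results of these data known. Arrays of equal D number deviated together (correlation over 0.1 in every pair) for all compounds but aflatoxin B1, so blocked results are given where they change a call. The closing section gives the alternatives. The highest correlation of 2 arrays was 0.985, and none was treated as a repeat.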

Additional observations from a re-analysis of the deposited data

How the results depend on the processing

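The number of family probe sets called was recomputed in each comparison with no filter, a floor of 16, quantile normalization, the D number as a replicate block, without the arrays of D number 3, without the 10 arrays with a high actin ratio, with a fit on the compound's own arrays, and with each array left out. The counts include Acot1 where it was called, although it passed the filter only through exposed groups. The block was set within each time, so its error for time in culture leaves out the spread between D numbers and can be too small. Under the replicate block the count was 8 for Wy-14643 at 24 h, 3 for piperonyl butoxide at 24 h, 1 for aflatoxin B1 at 72 h (whose numbers do not pair) and 3 for time in culture (2 up and 1, Acot13, down), against 0, 0, 0 and 1 as reported, and the block added Acot8 and Acot12 for Wy-14643 at 72 h and Acot7, Acot12 and Acot2 at 1388210_at for 2-nitrofluorene. Without D number 3 it was 6 for piperonyl butoxide at 24 h, 2 for aflatoxin B1 at 72 h, 4 for the time difference of Wy-14643, 3 for 2-nitrofluorene minus Wy-14643 at 24 h and 5 for time in culture. With the high-ratio arrays left out the count was 7, 5 and 5 for piperonyl butoxide at 24 h, the time difference of Wy-14643 and 2-nitrofluorene minus Wy-14643 at 24 h, 1 for this difference at 72 h and 5 for time in culture. With own arrays it was 0 for Wy-14643 at 72 h, 6 for piperonyl butoxide at 24 h and 2 for time in culture, which fell to 0 with no filter or with quantile normalization. With single arrays left out it ran from 7 to 9 for Wy-14643 at 72 h, 0 to 4 at 24 h, 6 to 8 for 2-nitrofluorene at 24 h, 2 to 6 at 72 h, 0 to 1 for aflatoxin B1 at 72 h, 0 to 3 for the time difference of Wy-14643, 0 to 2 for 2-nitrofluorene minus Wy-14643 at 24 h and 0 to 1 for time in culture, and was 0 throughout elsewhere. Counts over all probe sets moved more: with the block 3828 were called for Wy-14643 at 72 h (1320 as reported), 1307 and 915 for 2-nitrofluorene at 24 h and 72 h (204 and 146), 718 for Wy-14643 at 24 h (8) and 122 for piperonyl butoxide at 24 h (16), and with own arrays 0, 859, 540, 0 and 105. With the block the log2 changes of the members stayed as reported, while their errors and adjusted p differed. Why the errors differed was not tested. All 3 Acot1 controls of Wy-14643 at 72 h lie under the floor, so that change is a lower bound.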
